A study of Mus musculus with 6 samples.

Results

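The genes described here are 8 long noncoding RNA genes of mouse, 8 of the 52636 genes in the deposited table, chosen by name. They comprise 6 hosts of small nucleolar RNAs (snoRNAs), namely Gas5, Snhg1, Snhg5, Snhg6, Snhg8 and Snhg12, and 2 RNAs that are retained in the nucleus, Malat1 and Neat1. All 8 were among the 18241 genes that reached 1 CPM, the library-scaled unit of the deposited table, in at least 2 of the 6 libraries.

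The libraries came from esophageal organoids of Krt5CreER:RosaSmoM2 (K5:Smo) mice. In these animals tamoxifen frees a Cre enzyme made under the promoter of the basal keratin Krt5, so that SmoM2, an always-active Smoothened, is expressed from Krt5-positive cells. All 3 groups carried it. The esophagi were taken 5 days after tamoxifen, and cultures were kept for 13 days. For 72 h, with renewal every 24 h, cultures received TGFb1 (1 ng/ml) and BMP4 (20 ng/ml) with 500 µM of the cyclooxygenase inhibitor ibuprofen, TGFb1 and BMP4 alone, or the TGFb receptor inhibitor A8301 at 500 nM, with 2 libraries in each group. No group had neither the inhibitor nor the ligands, and the labels leave unsaid whether A8301 was kept in the ligand groups, so the ligands and the absence of the inhibitor cannot be told apart. The age of the mice is not given in the sources used here. Separate cultures or animals are not named for the libraries of a group, so p-values measure only the spread between these libraries, which may be technical.

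Depth, recovered from the grid of the deposited values, was 6413873 to 7730582 reads per library. Libraries within a group differed beyond counting error (chi-square 4.62 to 7.48 for each degree of freedom). The labelled epithelium was checked against its markers. Summed over 6 basal keratinocyte genes, the level was 13564 to 14185 CPM with ibuprofen added, 14323 to 16564 CPM with TGFb1+BMP4 and 6629 to 6823 CPM with the inhibitor. In TGFb1+BMP4 over the inhibitor 4 of these 6 genes rose (Krt5, Krt14, Itga6 and Itgb4), while Trp63 (-0.58, limma adjusted p = 0.00325) and Krt15 (-2.30, adjusted p = 0.00218) fell. Summed over 6 suprabasal genes it was 882 to 1705, 4433 to 5951 and 13985 to 16381 CPM in the same order of groups. Of the 6 suprabasal genes 4 fell in TGFb1+BMP4 over the inhibitor, Sprr3 did not pass (-0.82, limma adjusted p = 0.0887) and Ivl rose (3.29, adjusted p = 3.53e-05). Krt4, among the 4, had 1145 and 311 CPM with TGFb1+BMP4. Its change was -2.14, and -1.84 without inhibitor replicate 1, where the call was lost. The 7 fibroblast genes summed to 1512 to 1900 CPM, 1897 to 2910 CPM and 167 to 229 CPM, with none at 0 in any library, and 7 of 7 rose in TGFb1+BMP4 over the inhibitor. Of all genes 20.8% were higher and 19.4% lower in that comparison, which applies to all marker counts given here. The muscle genes summed to 881 to 1146, 1036 to 1362 and 511 to 585 CPM in the same order of groups, and Des, Acta1 and Ttn rose in that comparison (1.13, 1.22 and 1.13). The immune genes summed to 21.2 to 25.1, 19.1 to 19.7 and 54.9 to 57.9 CPM, with Cd68 lower (-2.50, limma adjusted p = 8.1e-06) and both rows of Itgam higher. Both rows of Itgam carry the same gene name, so they are not results for separate genes, and the immune sums include both. They reached 1 CPM only in the TGFb1+BMP4 libraries, so the filter favoured a higher call for them. Endothelial genes summed to at most 10.4 CPM in any library and glial genes to 50.7 to 78.4 CPM. The part of these shifts in the results that follow was not tested, and in bulk RNA fewer cells of a type and less RNA per cell cannot be told apart.

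snoRNA host genes carry snoRNAs inside their introns. Splicing frees the intron, the snoRNA is trimmed out of it and guides chemical modification of ribosomal or spliceosomal RNA, while the spliced exons of many hosts code for no protein. Gas5 is the best-known host whose RNA starts with a terminal oligopyrimidine (TOP) tract, as ribosomal protein mRNAs do, and whose spliced form is translated over a short frame and destroyed by nonsense-mediated decay, so that it builds up when growth and translation slow. Malat1 is a very abundant nuclear RNA found in speckles, the sites where splicing factors are stored. Neat1 is the scaffold of paraspeckles, bodies that need its long isoform, whereas the short isoform shares only the 5′ end.

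The RNA start decides whether a host is of the TOP kind, so the 100 bases around the RefSeq start are shown for the genes with a promoter entry (build GRCm38.p6). Each sequence has 50 bases before the start and 50 from it, 5′ to 3′ on the strand of the gene, and capitals mark the longest run of C and T that begins with C within 10 bases of the start.
Gas5, chr1:161035116-161035215, plus strand: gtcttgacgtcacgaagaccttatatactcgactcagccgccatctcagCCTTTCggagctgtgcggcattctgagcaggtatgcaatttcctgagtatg
Snhg1, chr19:8723437-8723536, plus strand: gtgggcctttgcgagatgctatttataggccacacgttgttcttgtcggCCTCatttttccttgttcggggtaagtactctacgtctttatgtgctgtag
Snhg5, chr9:88522848-88522947, minus strand: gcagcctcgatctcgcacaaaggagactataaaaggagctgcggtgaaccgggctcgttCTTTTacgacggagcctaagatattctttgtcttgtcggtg
Snhg8, chr3:123508287-123508386, minus strand: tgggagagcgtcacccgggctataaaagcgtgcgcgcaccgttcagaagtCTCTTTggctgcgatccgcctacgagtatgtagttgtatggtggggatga
Snhg12, chr4:132308628-132308727, plus strand: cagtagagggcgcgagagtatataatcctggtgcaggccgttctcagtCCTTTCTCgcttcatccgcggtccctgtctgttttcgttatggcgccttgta
Malat1, chr19:5802623-5802722, minus strand: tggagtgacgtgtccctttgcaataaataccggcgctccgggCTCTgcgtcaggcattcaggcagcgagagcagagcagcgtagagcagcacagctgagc
The run was 8 bases long in Snhg12, a length that 7.25% of the 32851 promoters of this length reach. It was 6 bases in Gas5 and Snhg8 (reached by 17.8%), 5 in Snhg5 (29.0%) and 4 in Snhg1 and Malat1 (46.1%). With the start as base 1 and the base before it as -1, the run began at -1 in Gas5 and Snhg1. It began at 1 in Snhg8, -2 in Snhg12, 10 in Snhg5 and -8 in Malat1, so those of Snhg5 and Malat1 do not lie at the start. For ribosomal protein genes, 44.1% of 68 promoters had at least 6 bases. A second RefSeq start of Gas5 at base 161034601 of chromosome 1 had a run of 3 bases. The letters TATAA stood in the 50 bases before the start, on the strand of the gene, in Snhg5, Snhg8 and Snhg12, against 4.93% of all promoters. TGACGTCA, searched over the 300 bases on both strands, was found in the Gas5 window shown and is in 1.79% of promoters. CACGTG and TGATGNAA were not in any of these windows. These matches are descriptions of letters and not of binding.

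The cargo of the hosts is shown by 5 of their snoRNAs, with sequences from GENCODE vM21 (GRCm38). Capitals mark the box C letters TGATGA and the box D letters CTGA of the methylation guides, and in Snora24 the ACA near the 3′ end that is typical of pseudouridylation guides.
Snord80 in Gas5, chr1:161037601-161037681, plus strand: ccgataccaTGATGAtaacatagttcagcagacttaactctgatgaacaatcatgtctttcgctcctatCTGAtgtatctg
Snord47 in Gas5, chr1:161038082-161038158, plus strand: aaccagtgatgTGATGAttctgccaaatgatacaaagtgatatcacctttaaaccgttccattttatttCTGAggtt
Snord50a in Snhg5, chr9:88521529-88521600, minus strand: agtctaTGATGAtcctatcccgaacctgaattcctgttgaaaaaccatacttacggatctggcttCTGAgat
Snord50b in Snhg5, chr9:88521797-88521868, minus strand: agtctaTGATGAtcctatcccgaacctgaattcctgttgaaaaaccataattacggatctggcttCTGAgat
Snora24 in Snhg8, chr3:123507937-123508066, minus strand: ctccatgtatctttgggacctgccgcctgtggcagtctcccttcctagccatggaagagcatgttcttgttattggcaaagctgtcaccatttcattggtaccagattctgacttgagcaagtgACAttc
Snord50a and Snord50b, both in Snhg5, are 72 bases long and differ by a single substitution, C50A (Snord50a base first, positions counted from 1 at the 5′ end), so their reads may be split between them and their separate values are uncertain.

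Per kilobase of exon, the order of levels began alike in the 3 groups. Malat1 led with a mean of 3887 CPM per kb with ibuprofen added, 3028 with TGFb1+BMP4 and 1795 with the inhibitor. Neat1 came next with 289, 386 and 190 CPM per kb, followed by Gas5 with 31.3, 36.6 and 93.5 CPM per kb. Snhg8 followed Gas5 in each group with 29.5, 29.1 and 34.0 CPM per kb, and its libraries overlapped those of Gas5 in both ligand groups but not with the inhibitor. Snhg12 was lowest with 5.70, 8.91 and 19.6 CPM per kb. Snhg1, Snhg5 and Snhg6 lay between, and with the inhibitor their libraries overlapped at 24.2 to 29.4 CPM per kb. The exon length used joins the exons of all transcripts, retained introns included. It is 3760 bases for Gas5 and 2402 bases, the whole gene span, for Snhg12. Before division by length, Snhg12 had a mean of 47.1 CPM with the inhibitor, above Snhg6 (30.5) and Snhg8 (29.0). With ibuprofen added its mean of 13.7 CPM was the lowest of the 8 genes.

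The first comparison, TGFb1+BMP4 over the TGFb inhibitor, asks what the ligands change relative to a blocked TGFb receptor. Of the 6 hosts 5 fell and none rose, and 2 of 2 nuclear RNAs rose (limma, Benjamini-Hochberg adjusted p under 0.05 over all 18241 genes). In the background 40.2% of genes passed, 19.4% lower and 20.8% higher, and the median change of all genes was 0.01 on the log2 scale. The libraries of these groups did not overlap for 7 of the 8 genes, against 72.2% of all genes, with 5 lower (36.6% of all genes) and 2 higher (35.5%). Without replicate 1 or replicate 2 of the inhibitor group, the number of all genes that passed was 4693 or 4775 in place of 7327.

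Gas5 (chr1:161034422-161038539, plus strand) had 118 and 157 CPM with TGFb1+BMP4, against 360 and 343 CPM with the inhibitor. Both ligand libraries lay far below both inhibitor libraries. The mean was 138 CPM ± 27.3 with TGFb1+BMP4 and 352 CPM ± 11.95 with the inhibitor (SD, n = 2 each), a log2 change of -1.34 (SE 0.12, limma adjusted p = 7.12e-05), or 2.53-fold lower. The start of Gas5 overlaps Zbtb37 on the other strand, and whether counting used the strand is not stated. Zbtb37 averaged 38.5 CPM over the libraries and its own change was -0.22 (limma adjusted p = 0.20).

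Snhg1 (chr19:8723475-8726443, plus strand), the host of box C/D snoRNAs on chromosome 19, had 37.5 and 46.2 CPM with TGFb1+BMP4, against 81.3 and 87.4 CPM with the inhibitor. It changed by -0.98 (SE 0.12, limma adjusted p = 0.000363). Snhg12 (chr4:132308623-132311024, plus strand), which carries the H/ACA guides Snora16a, Snora44 and Snora61 beside Snord99, had 21.4 and 21.4 CPM with TGFb1+BMP4, against 47.2 and 47.1 CPM with the inhibitor. The change was -1.08 (SE 0.13, limma adjusted p = 0.000297). In both genes both ligand libraries lay below both inhibitor libraries.

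Snhg5 (chr9:88521050-88522929, minus strand) had 19.2 and 22.2 CPM with TGFb1+BMP4, against 48.0 and 44.2 CPM with the inhibitor. It changed by -1.10 (SE 0.14, limma adjusted p = 0.000401). Snhg6 (chr1:9941959-9944118, minus strand), host of Snord87, had 13.2 and 15.9 CPM with TGFb1+BMP4, against 33.3 and 27.7 CPM with the inhibitor, a change of -0.997 (SE 0.18, limma adjusted p = 0.00299). Its 3′ end overlaps Mcmdc2 on the other strand, which averaged 4.90 CPM.

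Snhg8 (chr3:123507552-123508404, minus strand), host of Snora24, was the host that did not pass. It had 20.2 and 29.4 CPM with TGFb1+BMP4, against 30.1 and 27.8 CPM with the inhibitor, and the groups overlapped. Its change was -0.22 (SE 0.17, limma adjusted p = 0.35), with a 95% interval of the log2 change of -0.61 to 0.18. That interval lies above that of Gas5 (-1.62 to -1.07) and overlaps that of Snhg6 (-1.41 to -0.58), and the difference between members was not tested. The Snhg8 start shown above has a C and T run as long as that of Gas5.

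Malat1 (chr19:5795690-5802672, minus strand) had 20995 and 21294 CPM with TGFb1+BMP4, against 13150 and 11925 CPM with the inhibitor. The mean was 21145 CPM ± 212 and 12538 CPM ± 866 in that order (SD, n = 2 each), a log2 change of 0.77 (SE 0.21, limma adjusted p = 0.0205). The call was lost, at adjusted p = 0.0668, 0.146 and 0.213, without TGFb1+BMP4 replicate 1, inhibitor replicate 1 or inhibitor replicate 2, while the change stayed at 0.71 to 0.84. The rise of Neat1 given next passed without each library in turn. A gene model on the opposite strand inside Malat1, Gm37376, was listed at 11.5% to 12.4% of the Malat1 level in every library, so reads of this stretch cannot be assigned to a strand.

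Neat1 (chr19:5824708-5845478, minus strand), which lies next to Malat1 on the same strand, had 7599 and 8456 CPM with TGFb1+BMP4, against 4239 and 3637 CPM with the inhibitor. The mean was 8027 CPM ± 606 and 3938 CPM ± 426 in that order (SD, n = 2 each). Neat1 rose by 1.05 (SE 0.17, limma adjusted p = 0.00146), or 2.07-fold. Malat1 and Neat1 together took 2.92% ± 0.08 of the library with TGFb1+BMP4 and 1.65% ± 0.13 with the inhibitor, while the 6 hosts summed to 261 CPM ± 44.0 and 589 CPM ± 16.0 in that order (SD, n = 2 each).

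**Figure D1:**
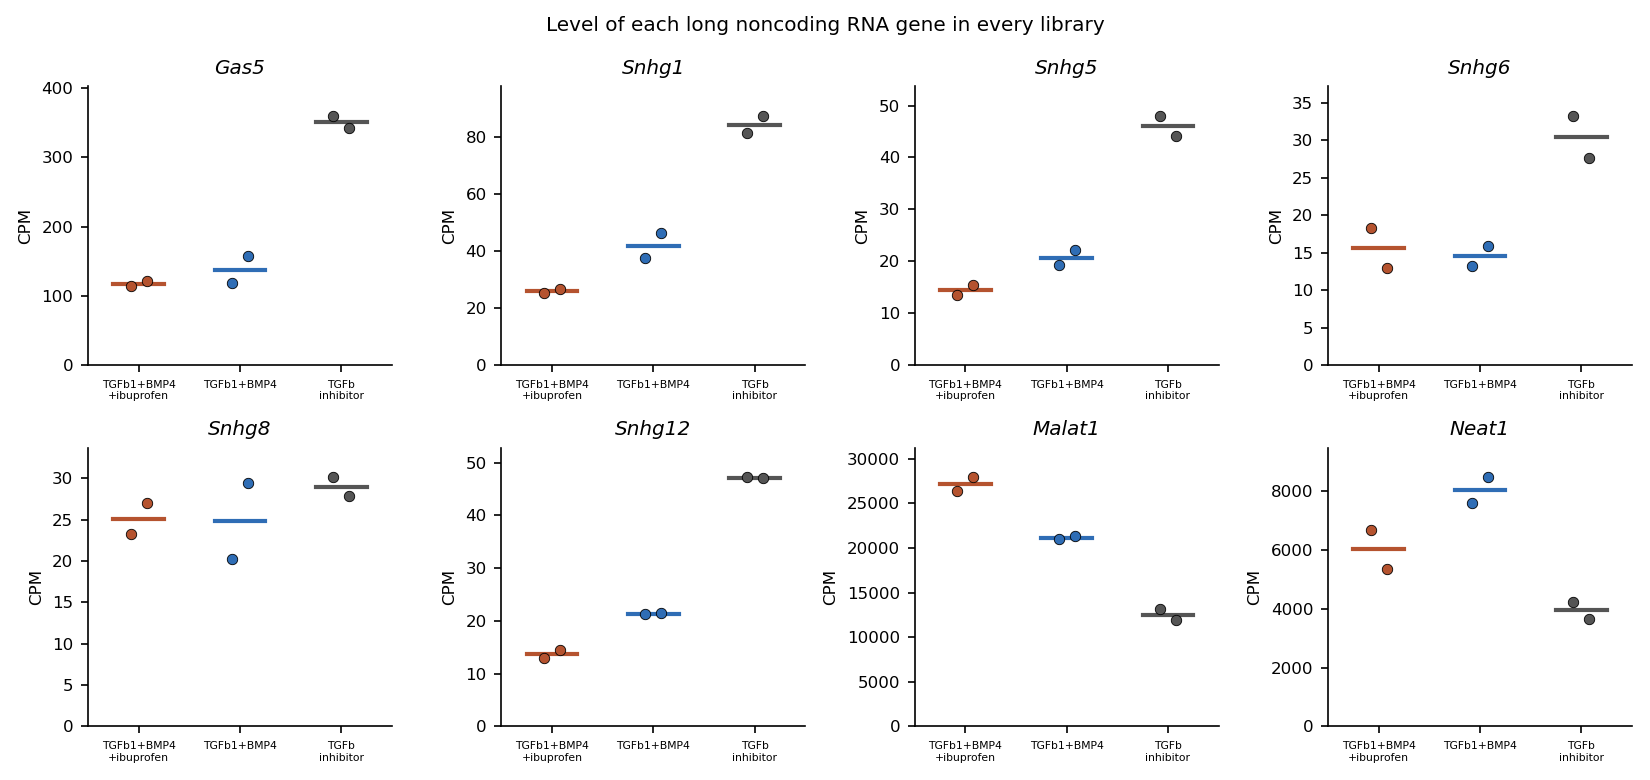
CPM of the 8 genes in every library (points), with the mean of each group (bar) and a linear axis from 0; groups run from TGFb1+BMP4+ibuprofen over TGFb1+BMP4 to TGFb inhibitor. Gas5, Snhg1, Snhg5, Snhg6 and Snhg12 are highest with the inhibitor, Snhg8 is near 20 to 30 CPM in all libraries, and Malat1 and Neat1 are lowest with the inhibitor.

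The second comparison, TGFb1+BMP4+ibuprofen over TGFb1+BMP4, asks what ibuprofen changes in the presence of the ligands. Snhg1 and Snhg12 fell further, and no host rose: 2 of 6 hosts were lower in limma, 3 at an unadjusted p under 0.05. None of the 2 nuclear RNAs passed in limma, 0 also at an unadjusted p under 0.05 and 1 in limma-voom. In the background 19.9% of all genes passed, 8.45% lower and 11.4% higher. The libraries did not overlap for 5 of 8 genes, against 58.8% of all genes, with 4 lower (34.5% of all genes) and 1 higher (24.2%). The number of all genes that passed was 1725 without ibuprofen replicate 1 and 2359 without TGFb1+BMP4 replicate 2, in place of 3623.

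Snhg1 had 25.1 and 26.7 CPM with ibuprofen added, against 37.5 and 46.2 CPM with the ligands alone, a change of -0.58 (SE 0.12, limma adjusted p = 0.0116). Snhg12 had 12.9 and 14.5 CPM with ibuprofen added, against 21.4 and 21.4 CPM with the ligands alone, a change of -0.53 (SE 0.13, limma adjusted p = 0.0224). Neither pair of groups overlapped. The call on Snhg1 was lost without ibuprofen replicate 1 (adjusted p = 0.075) or TGFb1+BMP4 replicate 2 (0.0632). The call on Snhg12 was lost without ibuprofen replicate 1 (0.114), TGFb1+BMP4 replicate 1 (0.0807) or 2 (0.064), or inhibitor replicate 1 (0.0534) or 2 (0.0529), and in a fit of only the 2 groups compared (0.0642).

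Snhg5 had 13.4 and 15.4 CPM with ibuprofen added, against 19.2 and 22.2 CPM with the ligands alone, and its change of -0.41 did not pass (SE 0.14, limma adjusted p = 0.072). It passed at -0.49 with no scaling factors (adjusted p = 0.0402) and at -0.48 with library totals that leave out mitochondrial, ribosomal protein, Malat1 and Neat1 genes (adjusted p = 0.0442). Gas5, at 114 and 121 CPM with ibuprofen added against 118 and 157 CPM with the ligands alone, overlapped, with a change of -0.12 and a 95% interval of -0.40 to 0.16 (limma adjusted p = 0.54). Without TGFb1+BMP4 replicate 2 the Gas5 change was 0.05. Snhg6 (0.17, limma adjusted p = 0.58, 95% interval -0.25 to 0.59) and Snhg8 (0.12, limma adjusted p = 0.67, 95% interval -0.27 to 0.52) overlapped as well.

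Malat1 had 26386 and 27902 CPM with ibuprofen added, against 20995 and 21294 CPM with the ligands alone. The groups did not overlap, and the change of 0.45 did not pass (SE 0.21, limma adjusted p = 0.18), although it did in limma-voom on the recovered reads (0.45, adjusted p = 0.0079). Neat1 had 6657 and 5360 CPM with ibuprofen added, against 7599 and 8456 CPM with the ligands alone, a change of -0.33 that did not pass (SE 0.17, limma adjusted p = 0.20). The ratio of Malat1 to Neat1 levels was 3.96 and 5.21 with ibuprofen added, against 2.76 and 2.52 with the ligands alone and 3.102 and 3.28 with the inhibitor.

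The third comparison, TGFb1+BMP4+ibuprofen over the TGFb inhibitor, shares its libraries with the other 2. Snhg12 changed by -1.61 (SE 0.13, limma adjusted p = 3.76e-05), Snhg1 by -1.56 (adjusted p = 3.24e-05), Snhg5 by -1.51 (adjusted p = 7.54e-05), Gas5 by -1.46 (adjusted p = 4.6e-05) and Snhg6 by -0.83 (adjusted p = 0.00726). Snhg12 was thus 3.05-fold lower, at a mean of 13.7 CPM ± 1.13 with ibuprofen and ligands and 47.1 CPM ± 0.11 with the inhibitor (SD, n = 2 each). Snhg8 changed by -0.09 (limma adjusted p = 0.70), with its libraries at 23.3 and 27.0 CPM against 30.1 and 27.8 CPM. Malat1 rose by 1.23 (adjusted p = 0.00229) and Neat1 by 0.72 (adjusted p = 0.00933). So 5 of 6 hosts were lower and 2 of 2 nuclear RNAs higher, where 40.6% of all genes passed, 18.7% lower and 21.9% higher. The libraries did not overlap for 8 of 8 genes, against 72.4% of all genes, with 6 lower (41.5% of all genes) and 2 higher (30.9%). The calls on Malat1 (0.061 without inhibitor replicate 2), Neat1 (0.0524 and 0.122 without inhibitor replicate 1 or 2) and Snhg6 (0.068 without inhibitor replicate 1) each rested on an inhibitor library, and without replicate 1 or 2 of that group 4770 or 4935 of all genes passed in place of 7412.

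**Figure D2:**
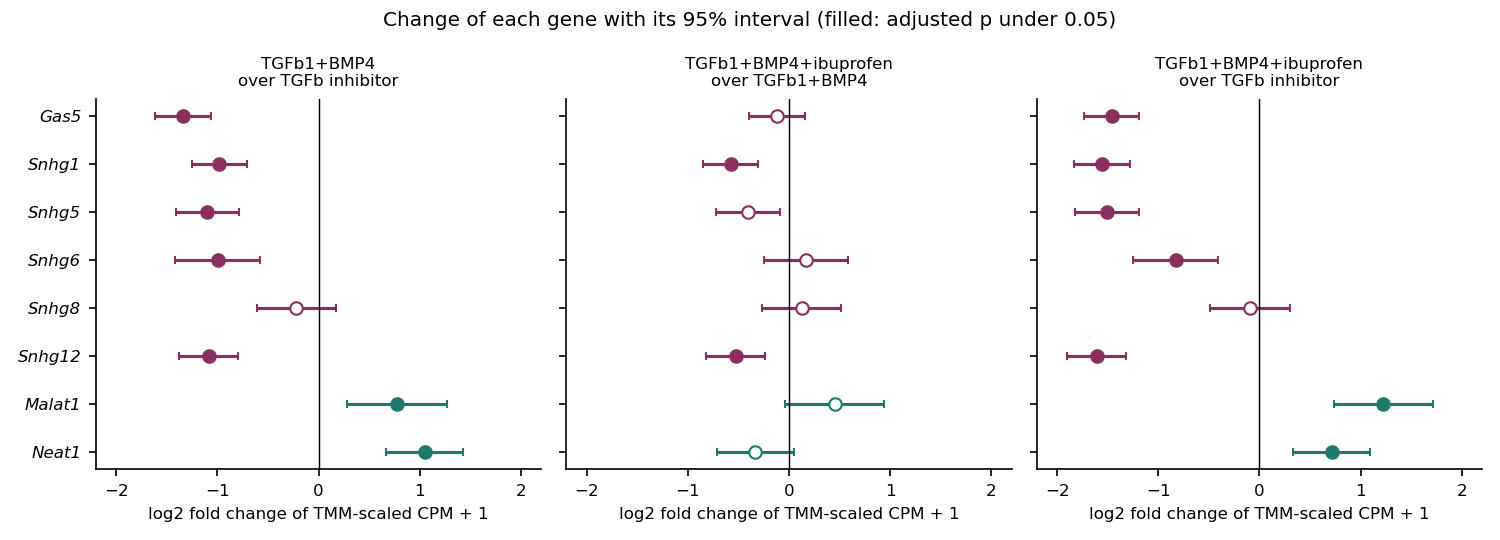
Log2 fold changes of TMM-scaled CPM + 1 (points) with their 95% intervals (bars) for the 8 genes in each comparison; filled points passed the adjusted threshold. Gas5, Snhg1, Snhg5, Snhg6 and Snhg12 lie left of 0 in both comparisons against the inhibitor, Snhg8 spans 0 in all 3, and Malat1 and Neat1 lie right of 0 against the inhibitor.

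In the authors' deposited table the log2 fold change of Gas5 over the inhibitor was -1.36 with TGFb1+BMP4 and -1.50 with ibuprofen added. The authors' deposited table gives 1 adjusted p per gene and names no comparison for it. It was 0.00737 for Snhg12, 0.0135 for Malat1, 0.0188 for Snhg5, 0.0236 for Snhg1, 0.0286 for Gas5, 0.0753 for Neat1, 0.138 for Snhg6 and 0.617 for Snhg8 in the authors' deposited table.

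The snoRNAs inside the hosts have rows of their own, 27 of them at 25 loci, since Snord80 in Gas5 and Snora16a in Snhg12 each carry 2 identifiers. The values of the Snora16a pair were identical in every library, so reads over overlapping genes had been counted for both. All rows but that of Snord87 lie in exons of a host transcript, 19 of them only in a retained intron, so that unspliced host RNA and the mature snoRNA cannot be told apart in these rows. In TGFb1+BMP4 over the inhibitor 9 of 27 rows were lower and none higher, against 19.4% of all genes lower, and the median change was -0.61. Most of the 9 lie in Gas5, and both rows of Snord80 are among them. With ibuprofen added over the ligands alone 1 of 27 was lower, Mir5117 in Gas5, against 8.45% of all genes, and the median was -0.33. In the third comparison 18 of 27 were lower, against 18.7% of all genes. All 27 rows passed the filter, but Snord99 and Snord87 did so only through the inhibitor libraries, where they were highest. Snord99 had 0.45 and 0.5 CPM with ibuprofen added, 1.05 and 0.75 with the ligands alone and 1.80 and 2.75 with the inhibitor. Snord87 had 0.3 and 0.80, 0.6 and 1.35, and 1.95 and 1.70 CPM in the same order. Snord99 is among the 9 lower rows and both are among the 18, so the filter favoured a lower call for them. These calls rest on few reads and few libraries: in the first comparison 0, 1, 1 and 5 rows were lower without inhibitor replicate 1, inhibitor replicate 2, TGFb1+BMP4 replicate 1 and TGFb1+BMP4 replicate 2, and 3 with no filter. In the third comparison 10, 8 and 11 rows were lower without inhibitor replicate 1, inhibitor replicate 2 and ibuprofen replicate 1, and 12 with no filter. The single call of the second, Mir5117, was lost without each of the 6 libraries in turn (adjusted p = 0.0535 to 0.122), and limma-voom made 0 calls (4 at an unadjusted p under 0.05).

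Among the Gas5 snoRNAs, Snord78 had 6.75 and 11.04 CPM with TGFb1+BMP4, against 17.8 and 15.9 CPM with the inhibitor, a change of -0.87 (SE 0.22, limma adjusted p = 0.0146). Snord47 changed by -0.71 (limma adjusted p = 0.0394), and the rows of Snord80 by -0.74 and -0.75 (adjusted p = 0.0307 and 0.0309). The calls on these 3 snoRNAs were lost without inhibitor replicate 1, inhibitor replicate 2 or TGFb1+BMP4 replicate 1, and that on Snord47 also without TGFb1+BMP4 replicate 2 (adjusted p = 0.054 to 0.177). The annotated Mir5117, whose sequence also carries boxes C and D, had 2.499 and 2.35 CPM with ibuprofen added against 4.90 and 5.65 CPM with the ligands alone, a change of -0.80 (SE 0.21, limma adjusted p = 0.0292). Mir5117 is a name from the annotation, and a mature miRNA was not measured.

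In the other hosts Snord99 in Snhg12 fell by 0.76 with TGFb1+BMP4 over the inhibitor (SE 0.25, limma adjusted p = 0.0425), a call that was lost without each of the 6 libraries in turn (0.0551 to 0.235). Snora61 (-0.56, adjusted p = 0.0958), Snora44 (-0.57, 0.14) and Snora16a (-0.75, 0.10), also in Snhg12, did not pass, nor did Snord22 in Snhg1 (-0.38, 0.30), Snord87 in Snhg6 (-0.53, 0.17) or Snord50a and Snord50b in Snhg5 (-0.34, 0.29 and -0.11, 0.80). Snora24 in Snhg8 did not pass either, with 11.2 and 14.3 CPM with TGFb1+BMP4 against 12.3 and 13.6 CPM with the inhibitor (-0.01, limma adjusted p = 0.97). Most of these rows hold few reads, at 2 to 14 per library for Snord87.

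Set against the host row, snoRNA reads were more frequent with TGFb1+BMP4 than with the inhibitor in Gas5, Snhg1, Snhg5 and Snhg12, with no overlap of the libraries. For Gas5, the 9 loci together had 286 and 308 reads per 1000 host reads with ibuprofen added, 369 and 382 with TGFb1+BMP4 and 248 and 268 with the inhibitor. All 3 groups were apart, and the 95% counting intervals of the ligand libraries, 324 to 421 and 341 to 428, lay above those of the inhibitor libraries, 228 to 270 and 247 to 291. Snhg1 had 466 and 483 per 1000 with TGFb1+BMP4 against 380 and 376 with the inhibitor, and Snhg12 had 631 and 649 against 461 and 544. Snhg5 had 164 and 222 with TGFb1+BMP4 against 120 and 102 with the inhibitor. In each of Snhg1, Snhg5 and Snhg12 at least 1 interval of a ligand library overlapped that of an inhibitor library. Snhg8 groups overlapped, at 553 and 488 with TGFb1+BMP4 and 409 and 488 with the inhibitor. With 2 libraries against 2 an exact two-sided permutation test cannot go below 0.333, so no test is given. Sequenced copies made by PCR are not separate molecules, and the intervals cover counting error only. The intervals treat snoRNA and host reads as independent counts, although reads over overlapping genes were counted for both, so their width is approximate.

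**Figure D3:**
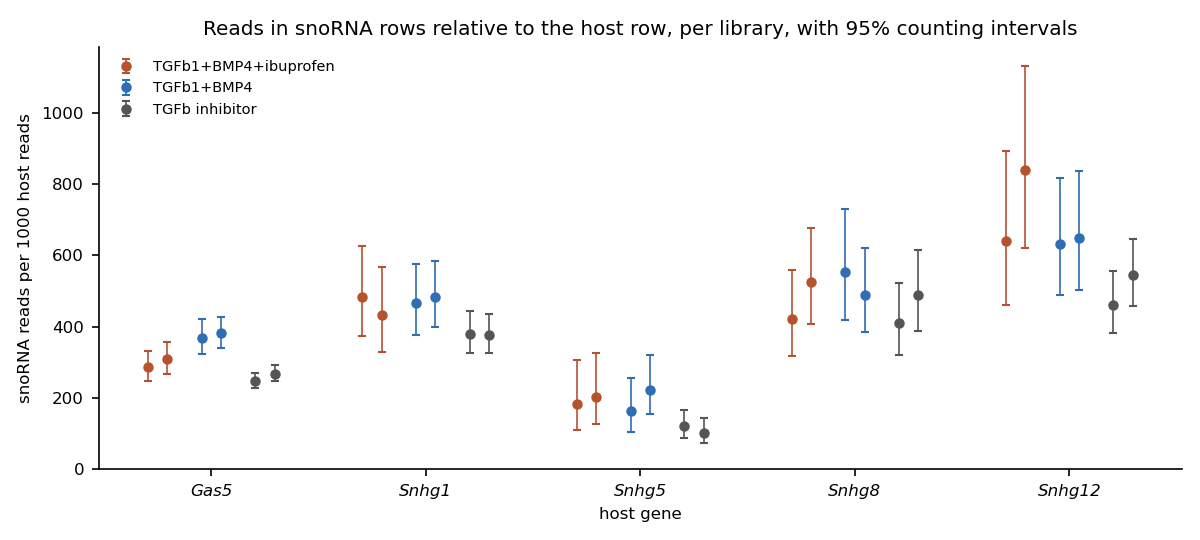
Reads in snoRNA rows per 1000 reads of the host row in each library (points) with 95% counting intervals (bars), for 5 hosts; Snhg6 with 2 to 14 snoRNA reads per library is left out. Gas5 is highest with TGFb1+BMP4 (369 and 382), and lowest with the inhibitor (248 and 268).

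Neat1 and Malat1 also hold short annotated rows, which were singled out after their values had been seen. Gm27533, Gm27505 and Gm28006 cover 384 bases within the first 1192 bases of Neat1, a stretch that the long (20771 bases) and the short (3170 bases) Neat1 transcripts of GENCODE share. Their summed level was 761 and 689 CPM with ibuprofen added, against 561 and 582 CPM with the ligands alone and 321 and 311 CPM with the inhibitor. The 3 groups did not overlap. In TGFb1+BMP4 over the inhibitor the 3 rows rose by 0.85, 0.80 and 0.95 (limma adjusted p = 0.000105, 0.000293 and 7.28e-05).

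With ibuprofen added over the ligands alone, the same rows rose by 0.43, 0.47 and 0.40 (SE 0.08, 0.09 and 0.09, limma adjusted p = 0.00791, 0.0099 and 0.0135), while the whole Neat1 row had the value of -0.33 given above. Their calls were lost without ibuprofen replicate 1 (adjusted p = 0.05003, 0.0688 and 0.0816), and that of Gm28006 also without TGFb1+BMP4 replicate 2 (0.0588). The rest of the Neat1 row was at 5896 and 4671 CPM with ibuprofen added, against 7037 and 7874 CPM with the ligands alone. Reads over overlapping genes had been counted for both, so the rows are taken as part of the Neat1 row. The 3 rows equalled 11.4% and 12.9% of Neat1 reads with ibuprofen added, 7.39% and 6.89% with the ligands alone and 7.57% and 8.55% with the inhibitor, each with a 95% Wilson interval whose half-width was at most 0.354 percentage points. These intervals cover counting error only, and in each group those of the 2 libraries did not overlap. With ibuprofen added they were 11.1% to 11.7% and 12.5% to 13.2%, so the spread between libraries is wider than the intervals. The libraries with ibuprofen stood above the 4 others. The difference between the rows and the whole gene was not tested.

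The row inside Malat1, Gm27694, gave no such shift. It equalled 6.41% and 6.61% of Malat1 reads with ibuprofen added, 6.39% and 6.53% with the ligands alone and 6.36% and 6.39% with the inhibitor. Its own level was 1692 and 1846 CPM with ibuprofen added, against 1343 and 1390 CPM with the ligands alone, a change of 0.46 (SE 0.11, limma adjusted p = 0.0201), close in size to the 0.45 of the whole Malat1 row that did not pass. The call on Gm27694 was kept without ibuprofen replicate 1 and lost without any of the other 5 libraries (adjusted p = 0.0536 to 0.0764).

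**Figure D4:**
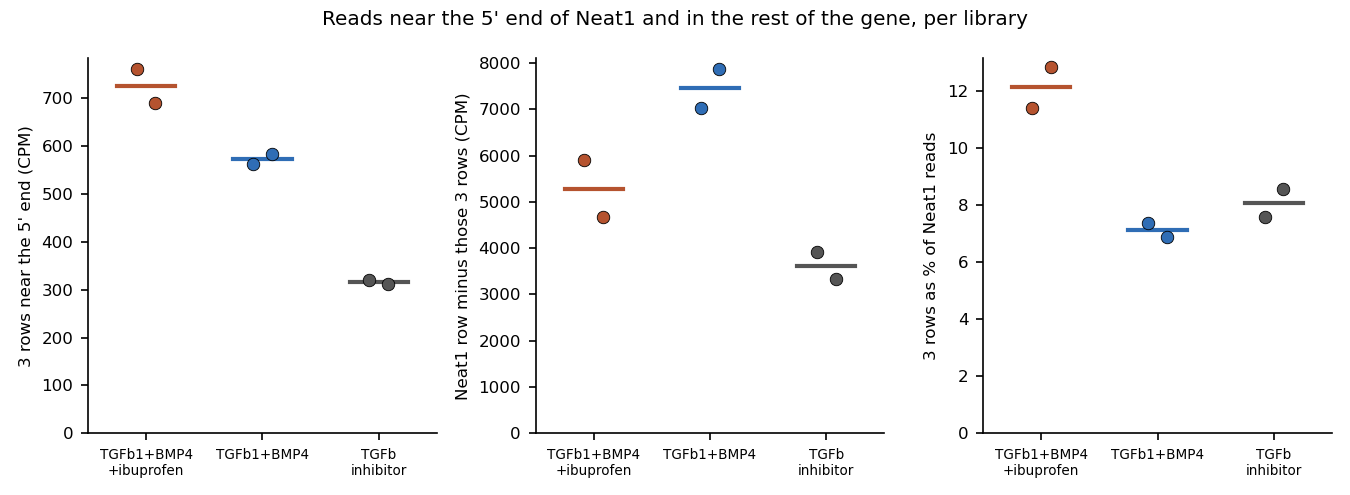
Summed CPM of the 3 annotated rows near the 5′ end of Neat1 (left), CPM of the Neat1 row without them (middle) and the rows as a percentage of Neat1 reads (right), per library (points) with group means (bars). The 5′ rows are highest with ibuprofen (761 and 689 CPM), whereas the rest is highest with TGFb1+BMP4 alone (7037 and 7874 CPM).

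The neighbours of the members were read beside them. Slc3a2, the heavy chain of amino acid transporters, starts 105 bases from Snhg1 on the other strand. It had 113 and 127 CPM with TGFb1+BMP4, against 425 and 525 CPM with the inhibitor (-1.95, SE 0.13, limma adjusted p = 1.92e-05). With ibuprofen added it had 199 and 157 CPM, against 113 and 127 CPM with the ligands alone (0.65, SE 0.13, limma adjusted p = 0.0118), a rise where Snhg1 fell. That rise was lost without ibuprofen replicate 1 (adjusted p = 0.0817) or TGFb1+BMP4 replicate 1 (0.051).

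Prss12, a serine protease gene 954 bases from Snhg8, rose by 0.95 with TGFb1+BMP4 over the inhibitor (limma adjusted p = 0.00274) and by 1.13 with ibuprofen added over the ligands alone (adjusted p = 0.00285), at 58.3 and 50.2 CPM against 21.2 and 31.4 CPM. Frmd8, 4223 bases from Neat1, rose by 1.07 with TGFb1+BMP4 over the inhibitor (SE 0.12, limma adjusted p = 0.000234), and had -0.24 with ibuprofen added (adjusted p = 0.20). Of the rest, Wdr74 (-0.77), Syncrip (-0.55) and Trnau1ap (-0.86) fell and Zfp949 (1.06) and Tcf24 (0.92) rose in that comparison, while Mcmdc2 (-0.60, adjusted p = 0.0632) and Ndst3 (0.72, 0.14) did not pass. The calls on Tcf24 (adjusted p = 0.0703 to 0.0895 without inhibitor replicate 1, inhibitor replicate 2 or TGFb1+BMP4 replicate 2) and Trnau1ap (0.0567 to 0.133 without inhibitor replicate 1, inhibitor replicate 2 or TGFb1+BMP4 replicate 1) were not stable. Rab42 did not reach the filter.

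Other noncoding snoRNA hosts were mixed. Of 15 genes, 13 had tested rows (14 rows, since Dancr has 2), of which 6 were lower, 1 was higher and 7 did not pass in TGFb1+BMP4 over the inhibitor, with a median of -0.70. Over all genes 19.4% were lower and 20.8% higher there. Zfas1 had 28.7 and 35.6 CPM with TGFb1+BMP4, against 85.4 and 75.2 CPM with the inhibitor (-1.28, limma adjusted p = 0.000105). Snhg15 (-1.61, adjusted p = 0.000112), Snhg4 (-1.24, 0.000435) and Snhg17 (-1.12, 0.000243) fell too. Snhg18, named after its values were seen, was the gene that rose (1.61, adjusted p = 0.000592). With ibuprofen added over the ligands alone none of the 14 rows passed in limma or limma-voom, and the median was -0.06. At an unadjusted p under 0.05 limma had 1 higher and 3 lower, and 2 were higher with the replicate number as a block.

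Lists of mRNAs tied to snoRNAs or translation were set beside the hosts. Of all genes 19.4% were lower and 20.8% higher in TGFb1+BMP4 over the inhibitor. With ibuprofen added over the ligands alone 11.4% of all genes were higher and 8.45% lower. In TGFb1+BMP4 over the inhibitor, 14 of 15 protein-coding snoRNA hosts (median -0.91), 78 of 79 ribosomal protein genes (median -0.95) and 17 of 17 other TOP mRNAs (median -0.86) were lower and none higher. With ibuprofen added over the ligands alone, 9 of 15 (median 0.48), 70 of 79 (median 0.56) and 11 of 17 (median 0.49) of the same lists were higher and none lower, beside the 2 of 6 members that were lower (median of the 6 members -0.26, of all genes 0.01). Snhg6 (0.17) and Snhg8 (0.12) had values above 0 in this comparison and did not pass, both calls on members were lost without ibuprofen replicate 1, and the difference between the lists and the members was not tested. The lists share genes, and ribosomal protein genes can share reads with their many pseudogenes. Without ibuprofen replicate 1, 4 of the 15 protein-coding hosts were higher in this comparison.

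Rack1, a ribosome-bound scaffold that hosts snoRNAs, shows both steps. It had 688 and 577 CPM with ibuprofen added, 406 and 402 CPM with the ligands alone and 1098 and 1008 CPM with the inhibitor. The change was -1.36 with TGFb1+BMP4 over the inhibitor (limma adjusted p = 3.38e-05) and 0.73 with ibuprofen added over the ligands alone (adjusted p = 0.0022). Eef1b2, a translation elongation factor gene, changed by -1.12 and 0.70 (adjusted p = 2.94e-05 and 0.000979). Ncl, the nucleolar protein nucleolin, changed by -1.27 (adjusted p = 4.06e-05), and its 0.15 with ibuprofen did not pass (adjusted p = 0.35).

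Of the ribosomal protein genes, Rpl5 had 339 and 327 CPM with ibuprofen added, 204 and 203 CPM with the ligands alone and 552 and 529 CPM with the inhibitor, with changes of -1.39 and 0.80 (limma adjusted p = 9.93e-06 and 0.000528). Rpl12 (-1.46 and 0.66), Rpl32 (-1.21 and 0.59) and Rps3a1 (-1.15 and 0.73) passed in both comparisons. Among other TOP mRNAs, Npm1 (-1.38 and 0.54) and Nap1l1 (-1.30 and 0.49) passed in both, while Eef1g (-1.12 and 0.27) passed in the first (adjusted p = 0.0543 in the second). Both comparisons use the TGFb1+BMP4 libraries, so these values stand side by side and are not independent.

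The mRNAs of proteins that package snoRNAs were mostly lower in TGFb1+BMP4 over the inhibitor. Of 8 snoRNP core genes 7 fell and none rose (median -1.24), and Nop10 did not pass (-0.11, limma adjusted p = 0.58). Of all genes 19.4% were lower there. Dkc1, the pseudouridine synthase of H/ACA particles, had 14.3 and 16.1 CPM with TGFb1+BMP4, against 62.4 and 47.5 CPM with the inhibitor (-1.76, limma adjusted p = 6.43e-05). Fbl, the methyltransferase of box C/D particles, changed by -1.27 (adjusted p = 0.000101), Nop58 by -1.29 (0.000273) and Nop56 by -1.10 (0.000104). With ibuprofen added over the ligands alone none of the 8 passed in limma or limma-voom (1 higher and 0 lower at an unadjusted p under 0.05, median 0.12), and 1 was lower without TGFb1+BMP4 replicate 1. The values were -0.07 for Fbl (limma adjusted p = 0.75), -0.33 for Nop58 (0.16), -0.11 for Nop56 (0.53) and 0.16 for Dkc1 (0.54).

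The mRNAs of partners of the nuclear RNAs moved little at the median in the first 2 comparisons. In the third, 5 of 11 paraspeckle genes (median -0.26) and 4 of 11 nuclear speckle genes (median -0.19) were lower and none higher, against 18.7% of all genes lower. The calls on Sfpq, Pspc1, Srsf2 and Srsf6 in that comparison were lost without either inhibitor library. Of 11 paraspeckle protein genes 3 were lower and none higher in TGFb1+BMP4 over the inhibitor (median -0.08). Of all genes 19.4% were lower there, which also applies to the speckle genes below. The lower paraspeckle genes are given next. These were Rbm14 (-0.45, limma adjusted p = 0.0174), Matr3 (-0.26, 0.0394) and Sfpq (-0.24, 0.0448), while Pspc1 was at -0.02 (0.90). These calls were unstable: the count was 1, 0, 0 and 0 without TGFb1+BMP4 replicate 1, TGFb1+BMP4 replicate 2, inhibitor replicate 1 and inhibitor replicate 2, and 1 with no filter. None of the 11 passed with ibuprofen added over the ligands alone in limma or limma-voom (1 higher and 2 lower at an unadjusted p under 0.05, median -0.07), while 2 were lower with no scaling factors. Of 11 nuclear speckle genes 3 were lower (median -0.09), among them the splicing factors Srsf7 (-0.72, limma adjusted p = 0.00123), Srsf2 (-0.41, 0.00488) and Srsf1 (-0.31, 0.0332, lost without any library of either group at 0.0533 to 0.177). With ibuprofen added 2 of 11 were lower, against 8.45% of all genes, including Srsf6 (-0.42, limma adjusted p = 0.017). That count was 0 without ibuprofen replicate 1 and 1 without ibuprofen replicate 2, TGFb1+BMP4 replicate 1 or TGFb1+BMP4 replicate 2.

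Of 10 nonsense-mediated decay genes, Smg1, the kinase of the pathway, was lower in TGFb1+BMP4 over the inhibitor (-0.54, limma adjusted p = 0.00173), and no other passed (median -0.11). Of all genes 19.4% were lower there. With ibuprofen added over the ligands alone 3 of 10 were lower (median -0.12), against 8.45% of all genes. These were the helicase gene Upf1 (-0.50, limma adjusted p = 0.00543), Smg6 (-0.44, 0.0234) and Smg5 (-0.35, 0.0326). The count was 1 without ibuprofen replicate 1, ibuprofen replicate 2 or TGFb1+BMP4 replicate 1, and the call on Smg5 was lost without each of the 6 libraries in turn (adjusted p = 0.0559 to 0.133). Upf1 had 104 and 98.2 CPM with ibuprofen added, against 146 and 160 CPM with the ligands alone.

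Other nuclear long noncoding RNAs did not share 1 direction. Of 9 genes 6 were tested, and 1 was higher and 2 were lower in TGFb1+BMP4 over the inhibitor (median 0.00). Over all genes 20.8% were higher and 19.4% lower there. With ibuprofen added over the ligands alone 11.4% of all genes were higher and 8.45% lower. Meg3, an imprinted RNA, had 32.2 and 27.4 CPM with ibuprofen added, 9.05 and 8.55 CPM with the ligands alone and 1.00 and 0.95 CPM with the inhibitor. It rose by 2.31 with TGFb1+BMP4 over the inhibitor (SE 0.19, limma adjusted p = 4.22e-05) and by 1.74 with ibuprofen added over the ligands alone (SE 0.19, adjusted p = 0.000599). Pvt1 (-1.47, limma adjusted p = 0.00134) and Kcnq1ot1 (-0.76, adjusted p = 0.00465) fell in the first comparison, and Airn rose in the second (0.82, adjusted p = 0.0442). In the second comparison 2 of the 6 genes were higher, and the call on Airn was lost without each of the 6 libraries in turn (adjusted p = 0.057 to 0.184).

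**Figure D5:**
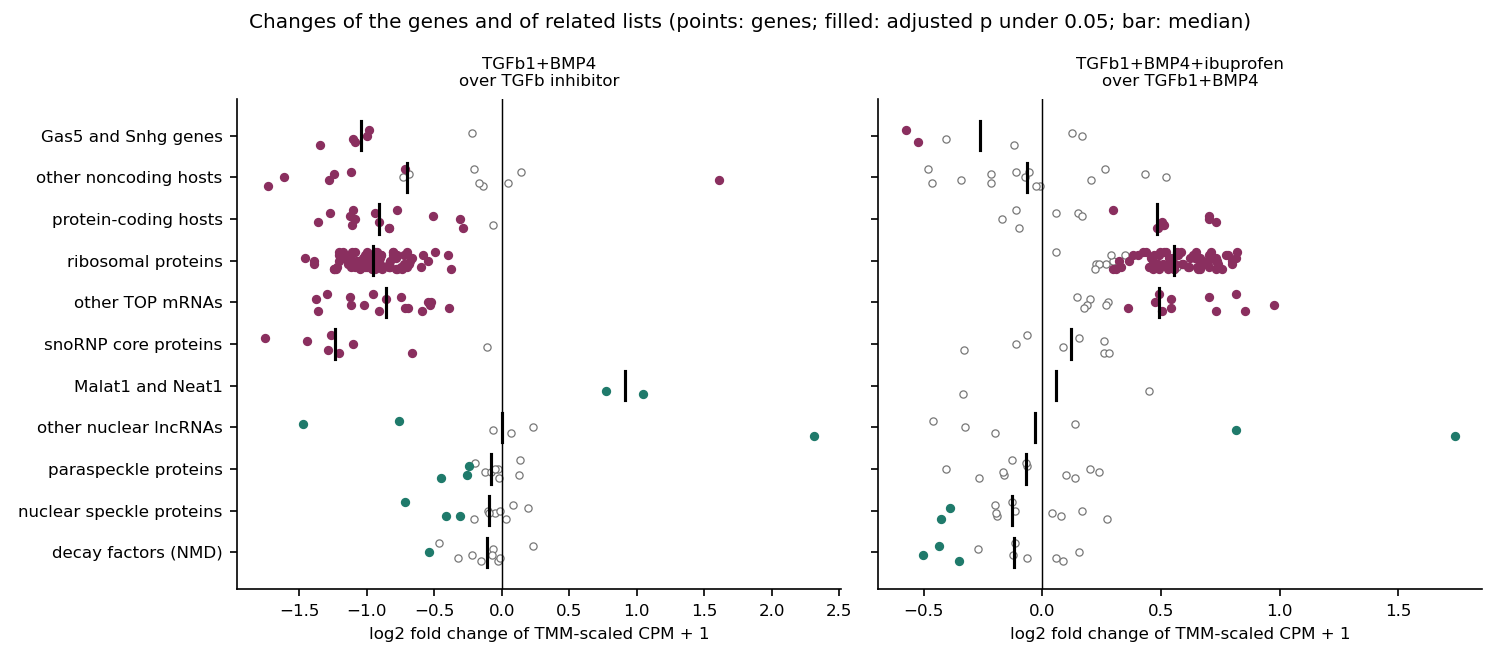
Log2 fold changes of TMM-scaled CPM + 1 of the members and of related lists, 1 point per gene row, with the median of each list (bar); filled points passed the adjusted threshold. In the right panel ribosomal protein genes (median 0.56), protein-coding hosts (0.48) and other TOP mRNAs (0.49) lie right of 0, whereas the Gas5 and Snhg genes have a median of -0.26.

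The genes whose log2 levels followed Gas5 most closely over the 6 libraries were Usp2, Rrp1b, Nfe2l2, Wdr77 and Chit1, out of 4801 candidates. Candidates averaged at least 20 CPM and spanned at least 0.5 on the log2 scale. The 8 members and genes with only a model name, such as Gm or Rik, were left out. The Pearson r of the named genes was 0.998 to 0.999, and the libraries fall into 3 groups of 2, so r mainly repeats the differences between groups. Nfe2l2, the oxidative stress regulator NRF2, had 182 and 197 CPM with ibuprofen added, 194 and 243 CPM with the ligands alone and 712 and 669 CPM with the inhibitor. Rrp1b, a nucleolar protein gene, averaged 16.1 CPM ± 1.06, 18.0 CPM ± 3.604 and 46.1 CPM ± 0.53 in the same order of groups (SD, n = 2 each). For Malat1 the closest included Ppp2r3a, Tmeff1, Utrn and Marcksl1 (r 0.998 to 0.999). Utrn, the gene of the muscle and epithelial protein utrophin, had 235 and 241 CPM with ibuprofen added, 183 and 185 CPM with the ligands alone and 120 and 113 CPM with the inhibitor.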

How the data were processed

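Expression was measured by RNA sequencing of total RNA in 6 libraries. Per the labels' protocols, an E.Z.N.A. kit gave the RNA, Ovation Solo the libraries and a NovaSeq instrument the reads. The submitters' processing notes name STAR 2.5.3a, HTSeq, edgeR, Cell Ranger 3.1.0 and the builds GRCm38 and mm10, with no role or order, and whether counting used the strand is not given in the sources used here.

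The authors deposited 1 table of 52636 genes. It holds a signal per library, scaled by the authors to nearly the same total (20010331 to 20013923) and rounded up, and CPM of that signal, also computed by the authors. It also holds the authors' log2 fold changes, and a p-value and an adjusted p-value per gene with no comparison named. A score column of the deposited table, the variance, was not used. The deposited signal falls on a grid from which reads were recovered, each value within 0.258 of a whole read. They served for depths, intervals and an added test only, because the rounding up did not allow a count test. The recovery and the fit were checked on simulated data.

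Genes with at least 1 CPM in at least 2 libraries (18241) were tested. CPM were divided by TMM factors (trims of 30% and 5%), 1 was added, and log2 values were fitted in limma (version 3.58.1, R 4.3.3) over all 6 libraries with 3 group means, 3 residual degrees of freedom and a mean-variance trend. Tests were two-sided, with Benjamini-Hochberg adjustment over all genes tested and a threshold of 0.05. Fold changes are on the log2(CPM + 1) scale, which understates changes of low genes. Group levels are of CPM as deposited.

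The members and gene lists were chosen with earlier results of these data known. The text names all 8 members, the snoRNAs inside them that pass the filter (those with only a model name are given as counts), the nearest protein-coding gene on each side, up to 4 genes per list by smallest adjusted p, and the 5 genes most like Gas5 and Malat1. Alternatives were other scaling, pseudocounts and filters, each library left out, the 2 groups compared alone, the replicate number as a block and limma-voom. Positions come from GENCODE vM21 (GRCm38) by gene identifier, and promoters from RefSeq, which had an entry for 6 of the 8 genes. A few genes that this rule names are not reported here.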

Additional observations from a re-analysis of the deposited data

How the results depend on the processing

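Of 384 values of the 8 genes under the alternatives, 361 kept their direction and their side of the threshold, 15 lost it, 3 gained it and 5 reversed. The 5 that reversed had not passed and changed sign when a library was left out. With TGFb1+BMP4 replicate 2 or 1 left out, Gas5 ranged from -0.293 to 0.052 in TGFb1+BMP4+ibuprofen over TGFb1+BMP4, and Snhg8 from -0.106 to 0.355 there and from -0.449 to 0.012 in TGFb1+BMP4 over the inhibitor. With ibuprofen replicate 1 or 2 left out, Snhg6 ranged from -0.047 to 0.384 in TGFb1+BMP4+ibuprofen over TGFb1+BMP4 and Snhg8 from -0.218 to 0.031 in TGFb1+BMP4+ibuprofen over the inhibitor. With a library left out, which leaves its group with 1 library assumed to vary like the others, the number of all genes passing ranged from 4693 to 7250 in TGFb1+BMP4 over the inhibitor, from 1725 to 2823 in TGFb1+BMP4+ibuprofen over TGFb1+BMP4 and from 4770 to 7489 in TGFb1+BMP4+ibuprofen over the inhibitor. Nuclear RNAs called ranged from 1 to 2 in the first comparison and from 0 to 2 in the third, and hosts called from 0 to 2 in the second. In TGFb1+BMP4+ibuprofen over TGFb1+BMP4, 2361 genes passed with no filter, 1 host passed with only the 2 groups compared, which uses fewer libraries, and 1 nuclear RNA (Malat1) passed with limma-voom, added after seeing the data. The cause of the last was not tested. With no scaling factors 43.2% of the calls in that comparison were higher, and with totals that leave out mitochondrial, ribosomal protein, Malat1 and Neat1 genes 44.9%, in place of 57.5%. In TGFb1+BMP4+ibuprofen over the inhibitor the share was 44.3% with no scaling factors, in place of 53.9%. The planned edgeR test on reads was not run, because the values are rounded up. Hosts other than Gas5 had 83 to 676 reads per library, which limits their precision.

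Replicate numbers are shared by the groups, but the labels do not tie them to a culture. Across genes, libraries with the same number deviated from their group means together at r = 0.17 to 0.26. With the replicate number as a block, 7948, 4373 and 7964 genes passed in the 3 comparisons (7327, 3623 and 7412 without it), and no call on the 8 genes changed.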
